A study of Mus musculus with 4 samples.

Results

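The clustered histone genes encode the histones that package newly copied DNA. The members described here were all RNA names of the deposited contact table that start with Hist, a cluster number and h, which gave 58 of the 13318 RNAs listed. They were grouped by the histone they encode and by genomic cluster. The classes held 5 RNAs for the linker histone H1, 12 for H2A, 17 for H2B, 11 for H3 and 13 for H4. Cluster 1, on chromosome 13, held 49 of them, cluster 2, on chromosome 3, held 6, cluster 3, on chromosome 11, held 2, and cluster 4, on chromosome 6, held only Hist4h4.

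Replication-dependent histone genes are short, lack introns and are transcribed mainly while DNA is being copied. Their messages end in a conserved stem-loop bound by the protein SLBP and not in a poly(A) tail, and they are degraded quickly when replication stops. In the testis, germ cells also use dedicated members such as Hist1h2aa and Hist1h2ba, which encode testis forms of H2A and H2B, and Hist1h1t, the testis linker histone. No pair of Hist1h1t was listed.

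The measurements came from RIC-seq, in which RNAs lying close together in formaldehyde-fixed cells are ligated and sequenced as joined reads. The 4 libraries were of mouse spermatogonial stem cells, the testis cells that maintain the germ line and feed sperm production: 2 control libraries whose genotype label was WT, and 2 libraries whose genotype label was Differentiation. Formaldehyde fixation and micrococcal nuclease digestion were common to all 4. The sources used here did not give strain, age, culture conditions, or how and for how long differentiation was induced. The labels also leave unsaid whether replicate libraries are separate cultures, so every p-value measured only the spread between these 4 libraries, possibly technical.

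The table listed 56636 pairs of RNAs, each with at least 1 count in every library, so a pair missing from any library was not analysed here. Library totals ranged from 793129 to 1400011 counts, with differentiation 1 the lowest and control 2 the highest. Summed levels of marker RNAs also moved between the groups. Single markers were called at an edgeR adjusted p under 0.05, by which 5.44% of all RNAs rose and 6.75% fell. All 5 tested meiotic prophase markers rose. The 6 listed summed to 116 and 107 CPM, counts scaled to library size, in the controls and 476 and 579 CPM after differentiation. Of 5 tested markers of undifferentiated spermatogonia 2 fell, and the 7 listed summed to 743 and 870 against 232 and 211 CPM. Of the somatic markers, 5 of 6 Sertoli markers fell (982 and 1117 against 608 and 565 CPM), as did 4 of 7 fibroblast markers (1408 and 1317 against 853 and 979 CPM). Of 3 tested markers of differentiating spermatogonia and 1 of immune cells, none passed the edgeR test, with 1 and 0 at an unadjusted p under 0.05. The 4 listed differentiating markers summed to 48.0 and 50.9 against 75.8 and 61.5 CPM. The 2 listed immune markers summed to 8.68 and 12.6 CPM in the controls, and differentiation 1 stood apart, with 48.1 CPM against 3.24 CPM in differentiation 2. Id4, Nanos2, Amh and Ptprc were among the defining markers that were not listed. The part of these marker changes in the histone results was not tested, and in bulk samples fewer cells of a type and less RNA per cell cannot be told apart.

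The histone genes were compared by the letters before their start sites. The windows, from RefSeq on GRCm38.p6, run from 250 bases before to 50 bases after the start, and 52 members matched, with 53 windows. The windows that follow are that of the member with the largest change (Hist1h2ba), those of the H2B and H4 RNAs with the highest levels per length (Hist1h2bl and Hist1h4c), and that of the member with the smallest change (Hist2h2bb). Capitals mark the octamer recognised by the transcription factor Oct-1 (ATTTGCAT or ATGCAAAT), the CCAAT box (CCAAT or ATTGG) and the TATA box (TATAAA or TTTATA). Both strands were searched, and no matches overlapped in these windows. The first window lies at chr13:23934107-23934406 on the minus strand, the second at chr13:21716134-21716433 on the minus strand, the third at chr13:23698409-23698708 on the minus strand and the last at chr3:96269450-96269749 on the plus strand.
Hist1h2ba: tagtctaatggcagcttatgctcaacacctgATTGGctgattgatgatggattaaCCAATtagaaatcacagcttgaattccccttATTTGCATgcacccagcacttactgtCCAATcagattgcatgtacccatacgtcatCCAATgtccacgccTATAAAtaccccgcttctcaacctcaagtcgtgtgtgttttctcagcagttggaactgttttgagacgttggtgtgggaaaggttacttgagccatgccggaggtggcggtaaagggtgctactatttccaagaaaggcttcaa
Hist1h2bl: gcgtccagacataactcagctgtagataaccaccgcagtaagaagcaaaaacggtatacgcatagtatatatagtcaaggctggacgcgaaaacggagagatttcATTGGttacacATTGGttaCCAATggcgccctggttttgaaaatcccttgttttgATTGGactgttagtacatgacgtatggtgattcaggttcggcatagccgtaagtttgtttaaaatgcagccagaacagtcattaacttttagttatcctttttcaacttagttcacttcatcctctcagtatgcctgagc
Hist1h4c: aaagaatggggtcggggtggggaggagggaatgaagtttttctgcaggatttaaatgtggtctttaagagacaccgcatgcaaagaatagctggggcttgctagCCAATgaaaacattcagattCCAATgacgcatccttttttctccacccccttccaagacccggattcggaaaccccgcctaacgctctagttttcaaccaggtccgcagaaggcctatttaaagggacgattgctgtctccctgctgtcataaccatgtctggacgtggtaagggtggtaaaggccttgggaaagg
Hist2h2bb: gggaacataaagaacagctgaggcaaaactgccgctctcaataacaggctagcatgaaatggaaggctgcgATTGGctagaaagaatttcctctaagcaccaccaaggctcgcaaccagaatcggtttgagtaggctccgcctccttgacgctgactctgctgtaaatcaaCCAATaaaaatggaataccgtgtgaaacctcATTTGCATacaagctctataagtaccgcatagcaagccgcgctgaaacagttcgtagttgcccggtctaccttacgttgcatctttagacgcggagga

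The octamer was present in 11 of the 53 histone windows (20.8%), against 1.74% of all 32851 windows of this length. All 11 belonged to 2 classes, with 4 of 10 H2A and 7 of 17 H2B windows. The CCAAT box was present in 83.0% of histone windows and 37.4% of all windows, and it was in every H1, H2A, H2B and H3 window but in only 3 of 12 H4 windows. TATAAA was present in 56.6% and 13.6%. Among tested H2B RNAs the median log2 change was 1.18 for the 7 with the octamer and 1.17 for the 8 without it. Hist1h2ba and Hist2h2bb, the H2B RNAs with the largest and smallest changes, both carried it. Hist1h2ba and Hist1h2aa are divergent neighbours with 280 bases between them, so their windows overlap and hold the same octamer.

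More of the joined reads came from histone RNAs in the differentiation libraries. Histone pairs held 1258 and 1324 control counts, and 2364 and 3363 after differentiation, which was 0.104% and 0.0946% of all counts against 0.298% and 0.291%. After TMM scaling, in which library sizes are adjusted so that most RNAs do not shift, the summed level was 728 and 667 CPM without and 1928 and 1815 CPM with differentiation, a ratio of 2.68. Neither group overlapped the other. The measurement counts joined reads, so a change in RNA level and a change in contacts cannot be told apart.

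All 5 classes were higher, by 2.19 to 2.93 times. H4 RNAs, whose product sits with H3 at the core of the nucleosome, had the highest sum, at 301 and 268 CPM in the controls and 861 and 810.3 CPM after differentiation. H2B RNAs came next, at 211 and 193 against 553 and 547 CPM. The other 3 classes were lower in every library. H2A sums were 78.1 and 70.5 against 161 and 165 CPM, and H3 sums 72.9 and 72.5 against 182 and 158 CPM. H1 RNAs, whose product binds the DNA between nucleosomes, summed to 64.2 and 62.0 against 171 and 135 CPM. In all 5 classes both differentiation libraries lay above both controls. In the controls both H1 sums lay below those of H2A and H3, which overlapped each other. After differentiation the sums of H1, H2A and H3 overlapped. By cluster, the ratio was 2.74 for cluster 1, 2.36 for cluster 2, 2.03 for cluster 3 and 1.65 for cluster 4. Clusters 3 and 4 rested on 2 RNAs and 1 RNA, at 13.9 and 9.07 against 22.8 and 23.8 CPM and 9.84 and 10.1 against 17.1 and 15.7 CPM. Of the 21 pairs that joined 2 histone RNAs, 19 lay within cluster 1 and none involved cluster 3 or 4. These sums were described and not tested.

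**Figure D1:**
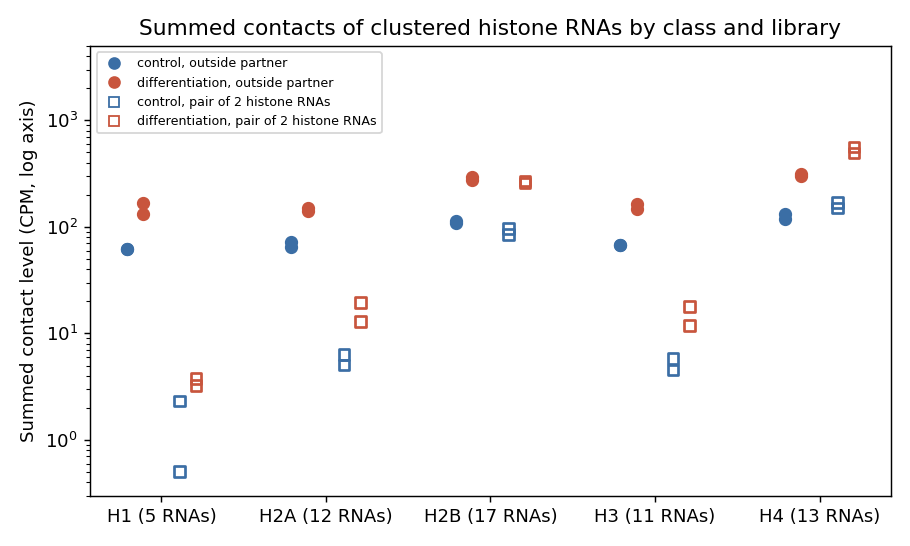
Summed level (CPM, log axis) of the histone RNAs of each class, with a point for every library. Circles show pairs with an outside partner and squares pairs of 2 histone RNAs. For both kinds the differentiation points lie above the control points in all 5 classes. For H4 the circles lie at 298 and 315 against 132 and 118 CPM, and the squares at 563 and 495 against 170 and 151 CPM. The H1 squares show 1 pair with 16 counts in all.

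Each RNA was then tested on its contact total, the sum of its counts over all its pairs, with edgeR's quasi-likelihood test over all RNAs. Of the 54 histone RNAs with enough counts, 29 rose at a Benjamini-Hochberg adjusted p under 0.05 and none fell, beside 5.44% of all 10993 RNAs that rose and 6.75% that fell. A count joining 2 histone RNAs entered the totals of both, so these calls are not independent. Without such pairs 14 of 53 tested members rose, as described below. All 54 estimates were above 0, with a median log2 change of 1.39, against a median near 0 over all RNAs. The low-count filter could admit an RNA through the group where it was higher. Without that filter all 58 estimates were above 0, with a median of 1.27. In 53 of the 54 both differentiation libraries exceeded both controls, which held for 26.1% of all RNAs. Hist1h3b, Hist1h3d, Hist1h3f and Hist3h2ba, with at most 19 counts each, were not tested. Among other genes of up to 1000 bases, 48 of 518 rose and 15 fell, with a median of 0.38.

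The count of 29 depended on the control libraries. Without control 1 it was 10 and without control 2 it was 5 (Hist1h2ba, Hist1h2bl, Hist1h4a, Hist1h4b and Hist1h4c) when the RNAs tested were kept the same as with 4 libraries. Calls over all RNAs also became fewer in these fits, with 0.973% and 0.418% higher. With the low-count filter applied to the 3 remaining libraries, which was the version run first, no RNA of any kind was called without either control, and 32 of 55 and 24 of 55 histone RNAs had an unadjusted p under 0.05. The version that keeps the RNAs was chosen after those results were seen. The median log2 change stayed between 1.28 and 1.52 in all 8 fits that leave out a library.

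**Figure D2:**
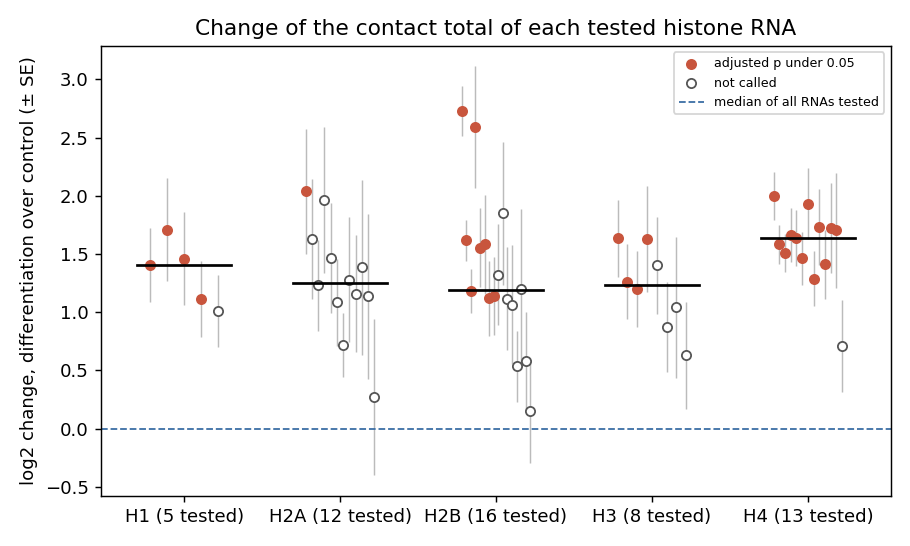
Log2 change (differentiation minus control, with its standard error) of the contact total of each of the 54 tested histone RNAs, by class. Every estimate lies above 0, from 0.15 for Hist2h2bb to 2.73 for Hist1h2ba.

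H4 was the class in which most members passed the test, 12 of 13, with a median of 1.64. Hist1h4b measured 50.3 and 38.3 CPM in the controls and 188 and 165 CPM after differentiation, a log2 change of 2.00 (SE 0.21, edgeR adjusted p 1.40e-04). Hist1h4c measured 92.0 and 100.2 against 288 and 289 CPM (1.58, SE 0.16, edgeR adjusted p 1.47e-04), and Hist1h4a 94.3 and 100.2 against 279.7 and 275 CPM (1.51, SE 0.16, edgeR adjusted p 2.02e-04). For these 3 RNAs the gap between the groups was many times the spread within them. The pair of Hist1h4c with Hist1h4a supplied 1051 of the 1246 counts of Hist1h4c and 1051 of the 1215 counts of Hist1h4a. The tests of these 2 RNAs are therefore not independent. Hist4h4, which lies alone on chromosome 6, was the H4 RNA that did not pass, at 9.84 and 10.1 against 17.1 and 15.7 CPM (edgeR adjusted p 0.277).

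H2B held both the largest and the smallest change, and 8 of its 16 tested members rose. Hist1h2ba, the testis form, measured 20.3 and 25.2 CPM in the controls and 148 and 156 CPM after differentiation, or 22.7 ± 3.49 and 152 ± 5.96 CPM (SD, n = 2 libraries per group). Its log2 change was 2.73 (SE 0.21, edgeR adjusted p 3.27e-05), a ratio of 6.64. A predicted gene, Gm33516, overlaps it and its neighbour Hist1h2aa. Hist1h2bl measured 87.4 and 75.6 against 239 and 261 CPM (1.62, edgeR adjusted p 1.96e-04). Hist1h2bb, also of cluster 1, measured 75.2 and 60.9 against 149 and 159 CPM (1.18, edgeR adjusted p 0.00221). The groups were clear of each other for these 3. In contrast, Hist2h2bb, of cluster 2, measured 15.04 and 10.6 against 18.8 and 10.3 CPM and was the only tested member whose groups overlapped (0.15, edgeR adjusted p 0.878). Hist1h2bn measured 24.3 and 19.1 against 33.4 and 29.7 CPM (edgeR adjusted p 0.289).

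H2A was the class with the fewest calls, 1 of 12, although its median log2 change was 1.26 and both differentiation libraries lay above both controls for all 12. The called member was Hist1h2aa, the testis form, at 2.31 and 3.53 CPM in the controls and 12.2 and 12.4 CPM after differentiation (2.04, SE 0.54, edgeR adjusted p 0.0305), on 49 counts in all. The annotated pseudogene Hist1h2al had the largest H2A contact total and measured 33.0 and 23.7 against 48.9 and 44.3 CPM (0.72, edgeR adjusted p 0.118). Hist3h2a, of cluster 3, measured 11.6 and 8.56 against 20.4 and 22.1 CPM (1.08, edgeR adjusted p 0.0867), and it overlaps the gene Trim17. Whether members of H2A changed less than those of H4 was not tested.

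In H3, 4 of 8 tested members rose. Hist1h3h measured 9.84 and 13.1 against 35.1 and 36.7 CPM (1.63, SE 0.33, edgeR adjusted p 0.00806). Hist2h3c1 measured 13.3 and 14.6 against 37.5 and 30.2 CPM (1.26, edgeR adjusted p 0.0257), and Hist1h3a 13.9 and 13.6 against 35.1 and 28.6 CPM (1.20, edgeR adjusted p 0.0337). These 3 encode replication-coupled forms of H3. Among those that did not pass, Hist2h3c2 measured 8.10 and 6.04 against 20.4 and 17.3 CPM (edgeR adjusted p 0.0508) and Hist1h3e 13.3 and 8.56 against 21.2 and 18.9 CPM (edgeR adjusted p 0.174).

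In H1, 4 of 5 members rose. Hist1h1c measured 17.4 and 12.6 against 36.7 and 42.1 CPM (1.40, SE 0.32, edgeR adjusted p 0.0141). Hist1h1b measured 5.21 and 5.04 against 17.1 and 16.7 CPM (1.71, edgeR adjusted p 0.0285), and Hist1h1d 8.68 and 9.57 against 32.6 and 18.9 CPM (1.46, edgeR adjusted p 0.0359). All 3 encode somatic linker histones. Hist1h1a measured 19.1 and 18.1 against 44.0 and 31.9 CPM and did not pass (1.01, edgeR adjusted p 0.0550).

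Levels were compared per kilobase of gene among the 47 tested members with a gene of up to 1000 bases. The highest control means were 256 CPM per kb for Hist1h4c, 214 for Hist1h4a, 172 for Hist1h2bl, 139 for Hist1h2bb and 98.5 for Hist1h4b. In that order, 84.3%, 96.8%, 96.7%, 86.0% and 95.3% of their counts came from pairs of 2 histone RNAs. Each such count enters both RNAs, and how reads were divided among alike copies is not known, so these ranks are uncertain. The testis H2B RNA Hist1h2ba stood at rank 11 in the controls, at 52.6 CPM per kb, and at rank 5 after differentiation, at 351 CPM per kb.

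No histone RNA had a within-RNA row, a pair joining an RNA to itself, so changes within and between RNAs could not be compared. Of all RNAs, 36.3% had such a row. It was rare in short genes of any kind: 8 of 669 other genes of up to 1000 bases had one (1.20%), against 4652 of 11817 longer genes (39.4%). Of the histone genes, 51 were of up to 1000 bases. When totals were taken over between-RNA pairs alone, 40 of 54 histone RNAs rose and none fell, with a median log2 change of 1.55. Of all RNAs, 6.56% rose and 6.47% fell in that fit. The histone counts were the same as in the contact totals, since no histone RNA had a within-RNA row. Only the counts of other RNAs differed, which enter the scaling, the fit and the set tested. The larger number of calls is therefore not a separate measurement of the histone RNAs.

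The 199 histone pairs divided into 21 that joined 2 histone RNAs and 178 with a partner outside the family. All 21 joined members of the same class, although 345 of the 1653 possible pairs (20.9%) are within a class. H2B and H4 had 8 each, H2A and H3 had 2 each and H1 had 1. In 19 both genes lay on chromosome 13, between 16.4 and 2217.5 kb apart, and in the other 2 one gene lay on chromosome 3. Many members of a core histone class are known to be close copies, and their identity was not computed here. Where copies are alike, a read joining 2 parts of a single histone RNA, with its parts assigned to different copies, cannot be told apart from a read joining 2 RNAs, and values of single members are uncertain.

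These 21 pairs held 3502 of the 8309 histone counts. Their share was 38.6% and 36.9% in the controls against 44.7% and 43.8% after differentiation. For H4 it was 56.2% and 56.1% against 65.4% and 61.1%, and for H2B 45.8% and 44.0% against 46.6% and 49.5%. The pair Hist1h4c with Hist1h4a alone held 30.01% of the counts inside the family, and 9 pairs with over 100 counts held 88.9%.

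At the level of pairs, 136 of the 199 had enough counts to be tested, and 25 rose while none fell, beside 1.30% of all between-RNA pairs that rose and 2.25% that fell. Of the tested pairs 10 of 20 inside the family and 15 of 116 with outside partners rose. Their median log2 changes were 1.88 and 1.74, with 19 of 20 and 115 of 116 estimates above 0. Hist1h2bl with Hist1h2ba had 19 and 24 counts in the controls and 105 and 173 after differentiation, a log2 change of 3.24 (SE 0.31, edgeR adjusted p 1.27e-05). Hist1h4c with Hist1h4a had 139 and 167 against 294 and 451 counts (1.84, SE 0.22, edgeR adjusted p 8.76e-05). Hist1h4d with Hist1h4b had 17 and 26 against 82 and 82 counts (2.54, SE 0.36, edgeR adjusted p 4.49e-04). All 3 lay clear of their controls after scaling. Hist1h2bl with Hist1h2bb had 113 and 97 against 161 and 256 counts (1.53, edgeR adjusted p 0.00149), and Hist1h4i with Hist1h4b had 51 and 24 against 84 and 160 counts (2.20, edgeR adjusted p 0.00155). Both estimates that lay below 0 were of Hist1h2bn, with Gm26917 (6 and 8 against 2 and 4 counts) and with Hist1h2br (10 and 14 against 7 and 6 counts), and neither passed the test. The count of 25 was 10 without control 2 with the same pairs tested, and 0 with the filter applied to the remaining libraries.

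**Figure D3:**
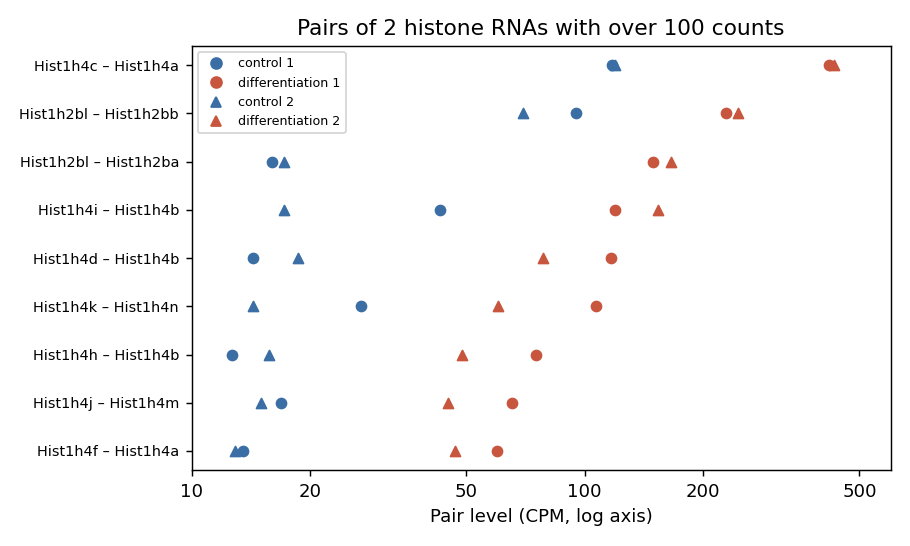
Level (CPM, log axis) in every library of the 9 pairs of 2 histone RNAs with over 100 counts. In each pair both differentiation libraries lie above both controls, as in Hist1h2bl with Hist1h2ba (149 and 166 against 16.0 and 17.2 CPM).

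Leaving out the pairs inside the family, 14 of 53 tested histone RNAs rose, all 14 among the 29, beside 5.29% of all RNAs in that fit, and the median log2 change was 1.26. Hist1h2ba measured 8.11 and 11.1 CPM in the controls and 57.2 and 57.3 CPM after differentiation in these totals (2.56, edgeR adjusted p 3.69e-04), and Hist1h4c measured 11.6 and 16.1 against 48.2 and 45.4 CPM (1.74, edgeR adjusted p 0.00375). Hist1h4a, whose counts came to 96.8% from inside the family, measured 4.63 and 7.06 against 5.72 and 5.40 CPM, and its estimate turned to -0.086 (edgeR adjusted p 0.949). Hist1h2bl (0.83, edgeR adjusted p 0.452), Hist1h2bb (0.83, edgeR adjusted p 0.179) and Hist1h4b (1.90, edgeR adjusted p 0.0653) no longer passed. Of the H4 RNAs 5 of 12 did.

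**Figure D4:**
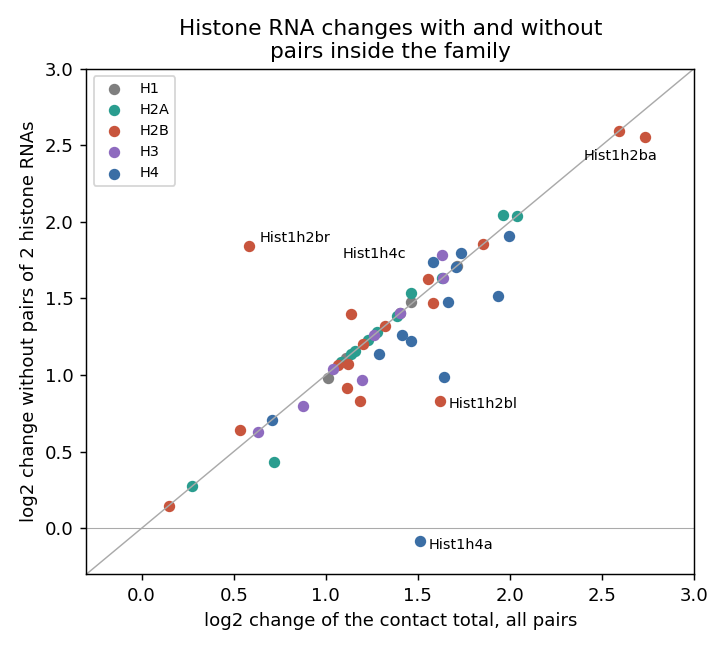
Log2 change of the contact total of each histone RNA over all pairs (x axis) and without pairs of 2 histone RNAs (y axis), coloured by class, with the line of equal values. Hist1h4a drops from 1.51 to -0.086 and Hist1h2bl from 1.62 to 0.83, while Hist1h2ba moves from 2.73 to 2.56.

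Outside the family the histone RNAs had 12 partners, and 3 of them held 89.4% of those counts, against 55.4% of the other between-RNA counts of the table. Gm42418 was joined to 49 members (1767 counts), Gm26917 to 47 (1374 counts) and Slc9a9, which encodes a sodium-proton exchanger, to 42 (1156 counts). These 3 were not particular to histone RNAs, being joined to 8422, 7584 and 7833 of the 13318 RNAs listed. They were followed by Gm23935 (157 counts) and Shroom3 (146 counts), whose product binds actin. Histone pairs with these 3 partners were higher after differentiation than in the controls. With Gm42418 the histone sum was 154 and 145 CPM in the controls and 421 and 376 CPM after differentiation, a log2 difference of 1.41, against -0.26 for the sum over all RNAs joined to Gm42418. The same differences were 0.97 and -0.50 for Gm26917 and 1.38 and -0.29 for Slc9a9. As shares of all counts, the sums over all RNAs overlapped between the groups for Gm42418 (10.2% and 12.01% against 10.6% and 9.99%). The Slc9a9 shares overlapped too (7.45% and 5.70% against 5.64% and 6.26%), and those of Gm26917 did not (11.01% and 12.5% against 8.86% and 9.59%). In the scaled CPM that gave the log2 differences, the groups did not overlap for any of these 3 partners. The Gm42418 sums were 71366 and 84713 against 68249 and 62362 CPM, and the Slc9a9 sums 52110 and 40175 against 36480 and 39049 CPM. The median log2 change over single pairs was 1.81, 1.20 and 1.75 for the histone RNAs with Gm42418, Gm26917 and Slc9a9, against 0.045, -0.23 and 0.034 over all RNAs with them. Single pairs passed the test with Gm42418 in 6 of 43 members (0.974% of all its pairs rose), with Gm26917 in 2 of 35 (0.340%) and with Slc9a9 in 5 of 27 (0.526%). Hist1h2ba with Slc9a9 had 3 and 6 counts in the controls and 28 and 39 after differentiation (3.43, SE 0.53, edgeR adjusted p 9.38e-04).

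RNAs of the proteins that make, process and handle histones were read from lists chosen by function, as contact totals in the fit over all RNAs. In that fit 5.44% of all 10993 RNAs rose and 6.75% fell. Of 21 tested DNA replication genes 5 rose and none fell, with a median log2 change of 0.32, led by the helicase subunits Cdc45 (1.23, edgeR adjusted p 0.00136) and Mcm3 (1.02, edgeR adjusted p 0.00396). Of 16 histone chaperone genes 3 rose, among them Chaf1a, of the assembly factor CAF-1 (0.97, edgeR adjusted p 0.00562), and the histone acetyltransferase Hat1 (1.00, edgeR adjusted p 0.0254), with a median of 0.16. Of 10 replacement variants, histones deposited outside replication, 3 rose, including H2afx (1.43, edgeR adjusted p 0.00521) and H2afv (0.88, edgeR adjusted p 0.0466), with a median of 0.42. The list of histone gene transcription factors had 1 of 7 that rose, the octamer-binding Pou2f1 (0.73, edgeR adjusted p 0.0345), with a median of -0.07. None of 14 tested histone mRNA processing genes passed the edgeR test, and 3 had an unadjusted p under 0.05, with a median of 0.23. The medians of these lists were closer to 0 than that of the histone RNAs, a difference that was not tested.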

How the data were processed

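The 4 RIC-seq libraries, 2 per group, were grouped by their titles. The deposited table holds unnormalized whole-number counts of joined reads for every pair and library. The submitters' processing notes name STAR and GRCm38 without saying their role or version; rules for chimeric reads, duplicates and near-identical copies are not given in the sources used here. Members and lists were chosen with earlier results of these data known. Pair names were split into their 2 RNAs. Counts were summed per RNA, a between-RNA pair entering both its RNAs, and tested over all RNAs or pairs with edgeR 4.0.16 (quasi-likelihood, TMM, filterByExpr with minimum count 5 and total 10, two-sided, R 4.3.3), after a check on simulated counts. In the simulated counts, a log2 change of 1 was recovered for 13 of 100 contact totals, 22 of 100 between-RNA totals and 0 of 100 pairs. A change of 2 was recovered for 77, 77 and 35 of 100. The changed features were drawn from all those tested, at any level. A member or pair that did not pass may therefore still have changed. RNA totals, between-RNA totals and pairs were scaled separately, so their CPM are not comparable. Each SE was derived from the quasi-likelihood test, as the absolute log2 change divided by the square root of its F statistic. Library totals of 793129 to 1400011 counts and 2 libraries per group limit the precision. Named were up to 3 called and 2 uncalled members per class by adjusted p or level, testis members, up to 2 members of clusters 2, 3 and 4, the leading pairs and partners, and up to 2 called RNAs per list. Alternatives were scaling, filter, block, DESeq2 1.42.0, dispersion, threshold, each library left out, and pairs left out. Fits that leave out a library used the RNAs of the 4-library filter; this replaced, after its results were seen, a filter on the remaining libraries, and both are reported. A group left with 1 library was assumed to vary like the other.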

Additional observations from a re-analysis of the deposited data

How the results depend on the processing

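Every fit gave 0 histone RNAs called lower. The 29 contact totals called higher became 17 with DESeq2, 15 of 42 without pairs of Gm42418 or Gm26917 and 14 without pairs of 2 histone RNAs. The 40 between-RNA totals became 25 with DESeq2 and 22 without Gm42418 and Gm26917. The 25 pairs became 53 at an adjusted p under 0.1 and 15 without pairs of 2 histone RNAs. The cause of these changes was not tested. Leaving out each library in turn gave 5 to 29 contact totals, 27 to 36 between-RNA totals and 10 to 34 pairs with the features of the 4-library filter. With the filter applied to the remaining libraries, the version run first and replaced after its results were seen, these ranges were 0 to 30, 27 to 37 and 0 to 31, with 0 contact totals without either control and 0 pairs without control 2. The replicate block gave 37 contact totals, 42 between-RNA totals and 47 pairs; same-numbered libraries share only a number (correlation of deviations 0.139). Hist2h2bb turned to -0.082 without control 2 (-0.091 with the filter re-applied) and to -0.28 without differentiation 1 (-0.27), with 0.55 as its highest value when a library was left out, and Hist1h4a to -0.086 without pairs of 2 histone RNAs. Column totals moved the median of all RNAs by 0.16 and gave summed log2 differences of 1.58 for all members, 1.29 for H2A, 1.60 for H2B, 1.38 for H3 and 1.71 for H4. Without Gm42418 and Gm26917 the H2A sum was 1.00 and the H3 sum 1.41. Without pairs of 2 histone RNAs the sums were 1.26 for all members, 1.36 for H2B and 1.29 for H4. The H2B sum reached 1.51 without control 1. Tests of within-RNA pairs and of within against between changes were not run, since no histone RNA had a within-RNA row. The 4 members with too few counts to be tested had at most 19 each; called members had a median control level of 15.2 CPM and those not called 7.03 CPM, though Hist1h2bk (2.67 CPM) was called and Hist1h2al (28.3 CPM) was not.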
